A study of Homo sapiens with 6 samples.

Results

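The genes described here are the G1 cyclins, their kinases and some of the inhibitors of those kinases: CCND1, CCND2, CCND3, CCNE1, CCNE2, CDK2, CDK4, CDK6, CDKN1B and CDKN2B. They were followed through every probe set of the array that names only 1 of these 10 genes, which gave 26 probe sets of the 54675 on the array. No member probe set named a second gene, and all 26 were tested, since no filter on low values was set. The treated cultures were DLD1 cells, an established human colorectal adenocarcinoma line with a truncated APC protein, exposed for 12 h to 10 µM SAH-BCL9B. The control cultures were the same cells exposed for 12 h to the DMSO vehicle. Each group had 3 arrays from triplicate cultures. SAH-BCL9B is a hydrocarbon-stapled peptide modelled on the helix with which the coactivator BCL9 binds beta-catenin. The series has 1 cell line, 1 dose and 1 time and no control peptide, so the comparison is of this peptide with its solvent.

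D-type cyclins bind CDK4 and CDK6, and E-type cyclins bind CDK2. These kinases phosphorylate the retinoblastoma protein and its relatives, which releases E2F transcription factors and lets a cell pass from G1 into S phase. Inhibitors of the INK4 type, such as CDKN2B, bind CDK4 and CDK6, and those of the CIP/KIP type, such as CDKN1B, bind cyclin-CDK complexes. CCND1 is widely cited as a gene that beta-catenin and TCF factors activate, which ties the family to the question of the study, what the peptide does to gene expression in these cells.

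Markers of colorectal epithelium were present throughout. Each marker gene, of any cell type, was read by its probe set with the highest mean, a choice that favours lying above the array median. All 9 colorectal epithelial markers, EPCAM and CDX2 among them, lay above the array median on all 6 arrays, and the mean of the 9 was 11.96 to 11.99 on the SAH-BCL9B arrays and 11.92 to 11.96 on the vehicle arrays. Of the 9, VIL1, which encodes the actin-bundling protein villin, fell by 0.86 on the log2 scale (limma adjusted p = 0.00989), KRT8, a keratin of simple epithelia, rose by 0.50 (0.0305), and 7 did not pass. The leukocyte marker PTPRC and the endothelial markers CDH5 and KDR lay below the median on all 6. On all 6 arrays, 0 of 4 measured leukocyte markers, 2 of 5 fibroblast markers and 1 of 4 endothelial markers lay above it. The 6 arrays had medians of 6.58 to 6.62 on the log2 scale and correlated with each other at r = 0.987 to 0.997 across probe sets. SAH-BCL9B 2 stood apart in the actin control: the 3' minus 5' difference of ACTB was 1.20, 0.74 and 1.33 on SAH-BCL9B arrays 1, 2 and 3, against 1.38, 1.29 and 1.21 on the vehicle arrays. It did not in the GAPDH control, where its difference was 0.14, against 0.085 to 0.169 on the other arrays. The array weight that limma estimated for it was the lowest, 0.354, against 0.752 to 1.655 for the others. For CCND1, CCNE2 205034_at, CDK6 224851_at and CDKN1B the change is given with and without this array.

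Of the 26 member probe sets, 1 rose and 1 fell in SAH-BCL9B by limma (adjusted p under 0.05). Cyclin D3 was higher by its bright probe set and CDK4 was lower by its single probe set. All 4 probe sets of the cyclin E genes had positive changes, and none passed: the lowest limma adjusted p was 0.0503 for CCNE1 and 0.0614 for CCNE2. CCND1, CCND2, CDK2, CDK6, CDKN1B and CDKN2B had no probe set that passed either. The background was 2.5% of all 54613 non-control probe sets past the threshold, 1.12% higher and 1.37% lower, and the share among members was 7.69%. An unadjusted limma p under 0.05 was reached by 6 of the 26, against 15.4% of all probe sets. The groups did not overlap in 5 of the 26, which is 19.2%, against 22% of all probe sets. In 4 of the 5 the SAH-BCL9B arrays were the higher (12.3% of all probe sets) and in 1 the lower (9.73%). All members are probe sets naming 1 gene. Of the 41091 such probe sets, 2.87% passed, 17% had an unadjusted limma p under 0.05 and 24.2% did not overlap. The median log2 change was 0.13 over the members and 0.01 over all probe sets, and 20 of the 26 changes were positive, as were 29061 of the 54613. In a bulk culture, fewer cells in a phase of the cycle and less RNA per cell cannot be told apart.

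**Figure D1:**
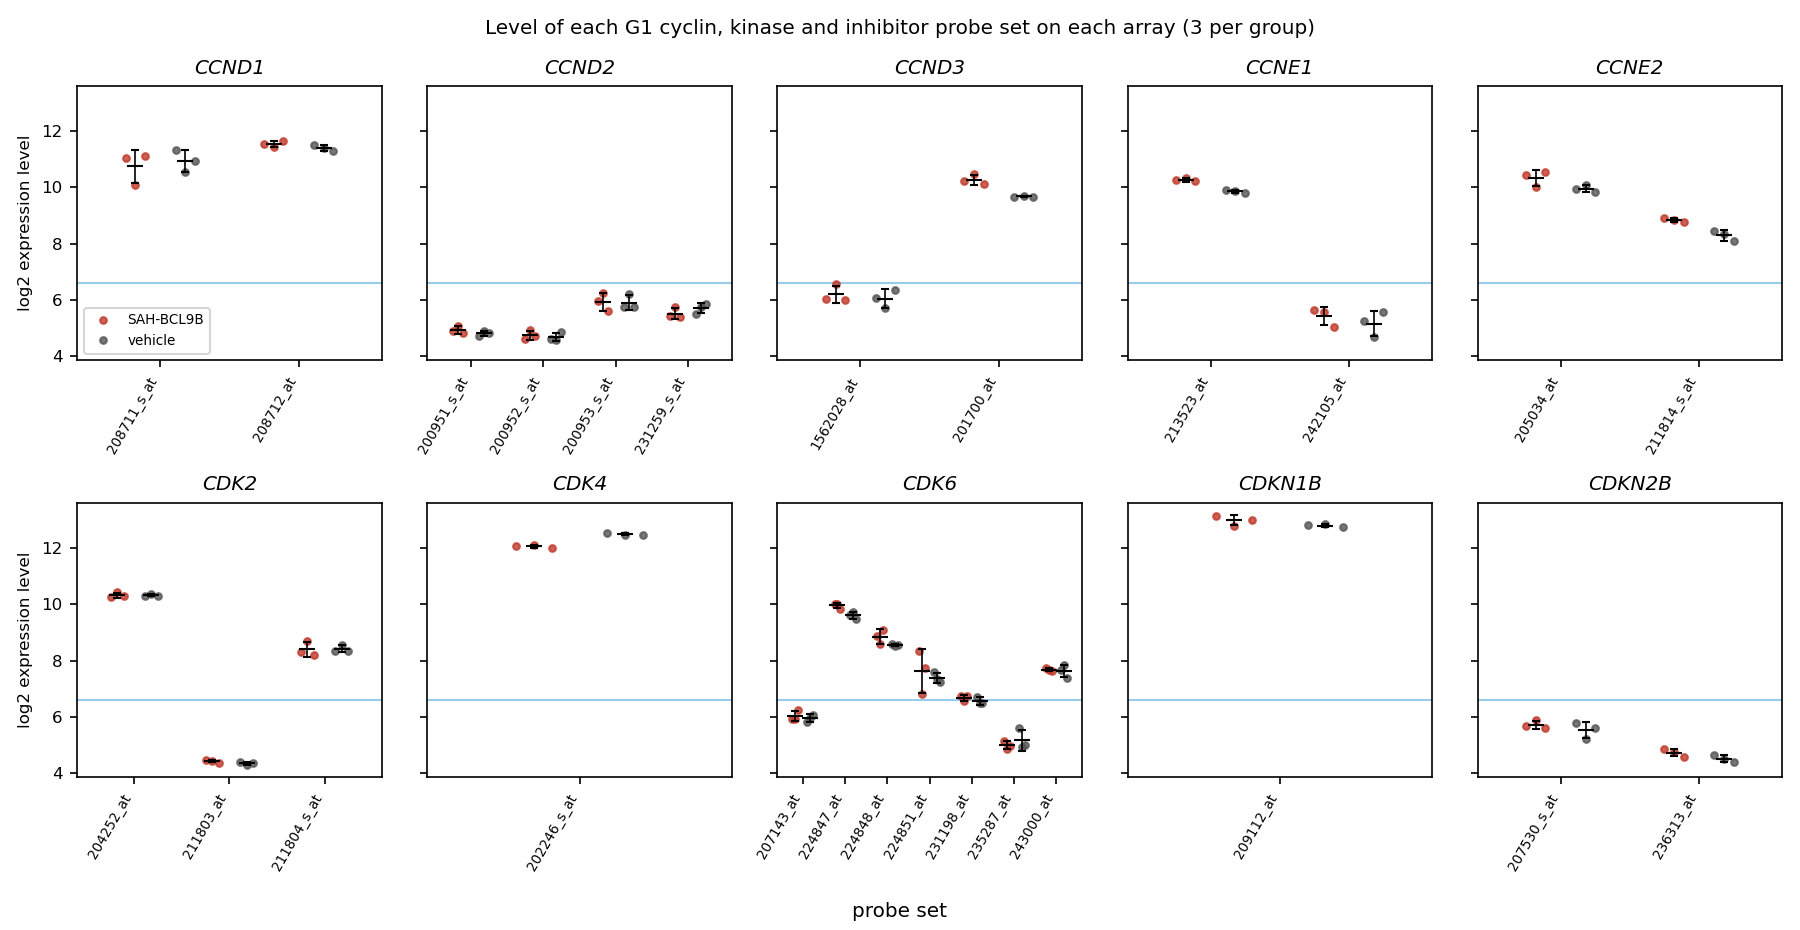
Log2 expression level (y axis) of each of the 26 probe sets (x axis), 1 panel per gene, with the 3 SAH-BCL9B arrays in red left of the 3 vehicle arrays in grey. Black bars are the mean and SD, and the blue line marks the array medians of 6.58 to 6.62. The red points of CCND3 201700_at lie above the grey ones and those of CDK4 below them, while all CCND2 and CDKN2B points lie under the line.

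CCND3 encodes cyclin D3. Its probe set 201700_at read 10.21, 10.48 and 10.12 on the SAH-BCL9B arrays, against 9.65, 9.70 and 9.67 on the vehicle arrays. All 3 treated arrays lay above all 3 vehicle arrays, and the vehicle arrays were within 0.05 of each other. The mean was 10.27 ± 0.18 in SAH-BCL9B and 9.67 ± 0.022 in vehicle (SD, n = 3 arrays each). The log2 change was 0.59 ± 0.11 (SE, limma adjusted p = 0.0375), a 1.51-fold rise. Without SAH-BCL9B 2, the array with the highest reading, the change shrank to 0.49 (limma adjusted p = 0.0379). The second CCND3 probe set, 1562028_at, read 6.04, 6.56 and 5.99 in SAH-BCL9B and 6.07, 5.70 and 6.36 in vehicle, all below the array medians. Its groups overlapped, and its change was 0.15 ± 0.21 (SE, limma adjusted p = 0.831). The mean of both probe sets gave 0.37 for the gene (limma adjusted p = 0.179). Among other settings, the 201700_at call was lost without any 1 array other than SAH-BCL9B 2 (limma adjusted p of 0.0982 to 0.171). Those fits called 97 to 357 of all probe sets, against 1363 as reported. The 201700_at call was also lost with a second quantile normalization (limma adjusted p = 0.0523) and with vehicle 3 and SAH-BCL9B 2 both dropped (0.0666). Its changes in these settings were 0.49 to 0.67.

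CCND1 encodes cyclin D1, and its probe sets gave changes of opposite sign. Probe set 208712_at read 11.55, 11.45 and 11.65 on the SAH-BCL9B arrays and 11.51, 11.40 and 11.30 on the vehicle arrays. Probe set 208711_s_at read 11.05, 10.08 and 11.10 in SAH-BCL9B, against 11.32, 10.53 and 10.95 in vehicle. The groups overlapped in both probe sets, and array 2 was the lowest of its group in 208711_s_at under either treatment. The change was 0.15 ± 0.10 for 208712_at and -0.19 ± 0.30 for 208711_s_at (SE, n = 3 arrays each), with limma adjusted p of 0.573 and 0.864. The 95% interval ran from -0.08 to 0.37 for 208712_at and from -0.89 to 0.52 for 208711_s_at, a range wide enough to hold a sizeable change of either sign.

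The opposite signs were known when these genes were chosen, so the within-array difference between the CCND1 probe sets is given as a description. An exact two-sided permutation test of this difference between the groups gave p = 0.5, where 0.1 was the smallest possible. With the signs known beforehand, that p was not used as evidence. The difference, 208712_at minus 208711_s_at, was 0.50, 1.37 and 0.55 in SAH-BCL9B and 0.20, 0.87 and 0.36 in vehicle. Its mean was 0.80 ± 0.49 in SAH-BCL9B and 0.47 ± 0.35 in vehicle (SD, n = 3). The groups overlapped, and their means were 0.33 apart, less than the SD within either. Without SAH-BCL9B 2 the difference was 0.05, and the change of 208711_s_at was 0.15, of the same sign as 208712_at at 0.20. With the ACTB 3' minus 5' difference as a covariate the changes were 0.20 and 0.22. That difference was lowest on SAH-BCL9B 2, so this fit is not a separate check from leaving that array out. The limma adjusted p of 208711_s_at was 0.771 without SAH-BCL9B 2 and 0.63 with the covariate. Its change was also above 0 without vehicle 1, at 0.0075, and ran from -0.39 to -0.18 without any 1 of the other arrays.

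**Figure D2:**
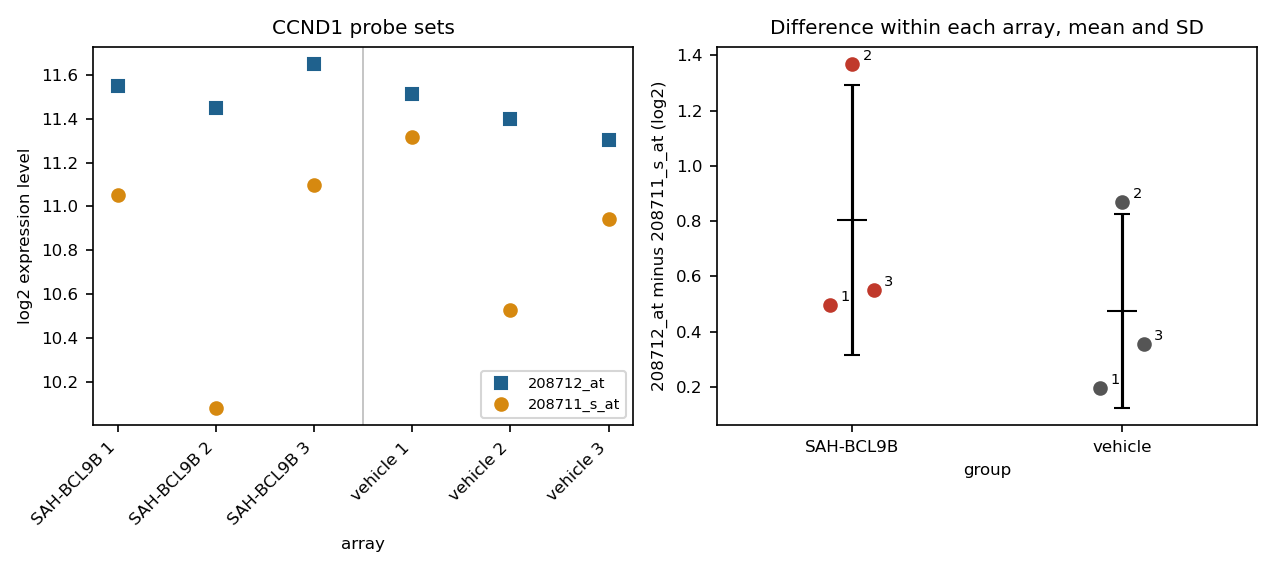
Left, log2 level (y axis) of the CCND1 probe sets 208712_at (squares) and 208711_s_at (circles) on each array (x axis). Right, their difference within each array on the log2 scale by group, with mean and SD in black and array numbers beside the points. Array 2 has the lowest 208711_s_at level in its group and the highest difference, 1.37 in SAH-BCL9B and 0.87 in vehicle.

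CCND2, which encodes cyclin D2, was dim throughout. Its 4 probe sets averaged 4.74 to 5.94 in SAH-BCL9B and 4.68 to 5.90 in vehicle, and every vehicle array lay below its own median. The brightest, 200953_s_at, read 5.95, 6.26 and 5.62 in SAH-BCL9B and 5.74, 6.21 and 5.74 in vehicle. These groups overlapped, as did those of the other probe sets, and the changes ran from -0.19 for 231259_s_at to 0.11 for 200951_s_at. None of the 4 CCND2 probe sets passed limma's test or reached an unadjusted p of 0.05. Signal over background is unknown here, so a change of CCND2 below the array's range of measurement would not be seen.

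CCNE1 encodes cyclin E1, whose binding activates CDK2. Probe set 213523_at read 10.26, 10.35 and 10.21 on the SAH-BCL9B arrays, against 9.90, 9.87 and 9.80 on the vehicle arrays. The groups were apart, by more than the spread inside either. The mean was 10.27 ± 0.07 in SAH-BCL9B and 9.86 ± 0.05 in vehicle (SD, n = 3), and the change of 0.42 ± 0.08 (SE) missed the threshold by little (limma adjusted p = 0.0503). The other probe set, 242105_at, read 5.64, 5.56 and 5.04 in SAH-BCL9B and 5.24, 4.67 and 5.56 in vehicle, below the array medians. Its groups overlapped, with a change of 0.26 ± 0.25 (SE, limma adjusted p = 0.73). Probe set 213523_at passed in 6 of 17 alternative settings, among them 1 probe set per gene (limma adjusted p = 0.0194). Without SAH-BCL9B 2, the array with its highest reading, its change was 0.38 (limma adjusted p = 0.0738).

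CCNE2 encodes cyclin E2, the paralog of cyclin E1. Probe set 211814_s_at read 8.91, 8.83 and 8.76 on the SAH-BCL9B arrays and 8.46, 8.35 and 8.08 on the vehicle arrays. The treated arrays were again all above the vehicle arrays. The mean was 8.83 ± 0.08 in SAH-BCL9B and 8.30 ± 0.19 in vehicle (SD, n = 3), with a change of 0.54 ± 0.12 (SE, limma adjusted p = 0.0614). The brighter probe set, 205034_at, read 10.43, 10.02 and 10.56 in SAH-BCL9B and 9.94, 10.08 and 9.84 in vehicle. SAH-BCL9B 2 fell inside the vehicle range there, and the change was 0.38 ± 0.15 with it and 0.54 without it (limma adjusted p = 0.272 and 0.0481). With the ACTB covariate, whose value was lowest on SAH-BCL9B 2, 205034_at gave 0.56 (limma adjusted p = 0.04). Probe set 211814_s_at did not pass without SAH-BCL9B 2 or with the ACTB covariate. Its changes there were 0.54 and 0.56 (limma adjusted p = 0.081 and 0.0742). The mean of both probe sets gave 0.46 for the gene and passed (limma adjusted p = 0.0427). Of the member genes with several probe sets, CCNE2 alone passed in that setting.

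**Figure D3:**
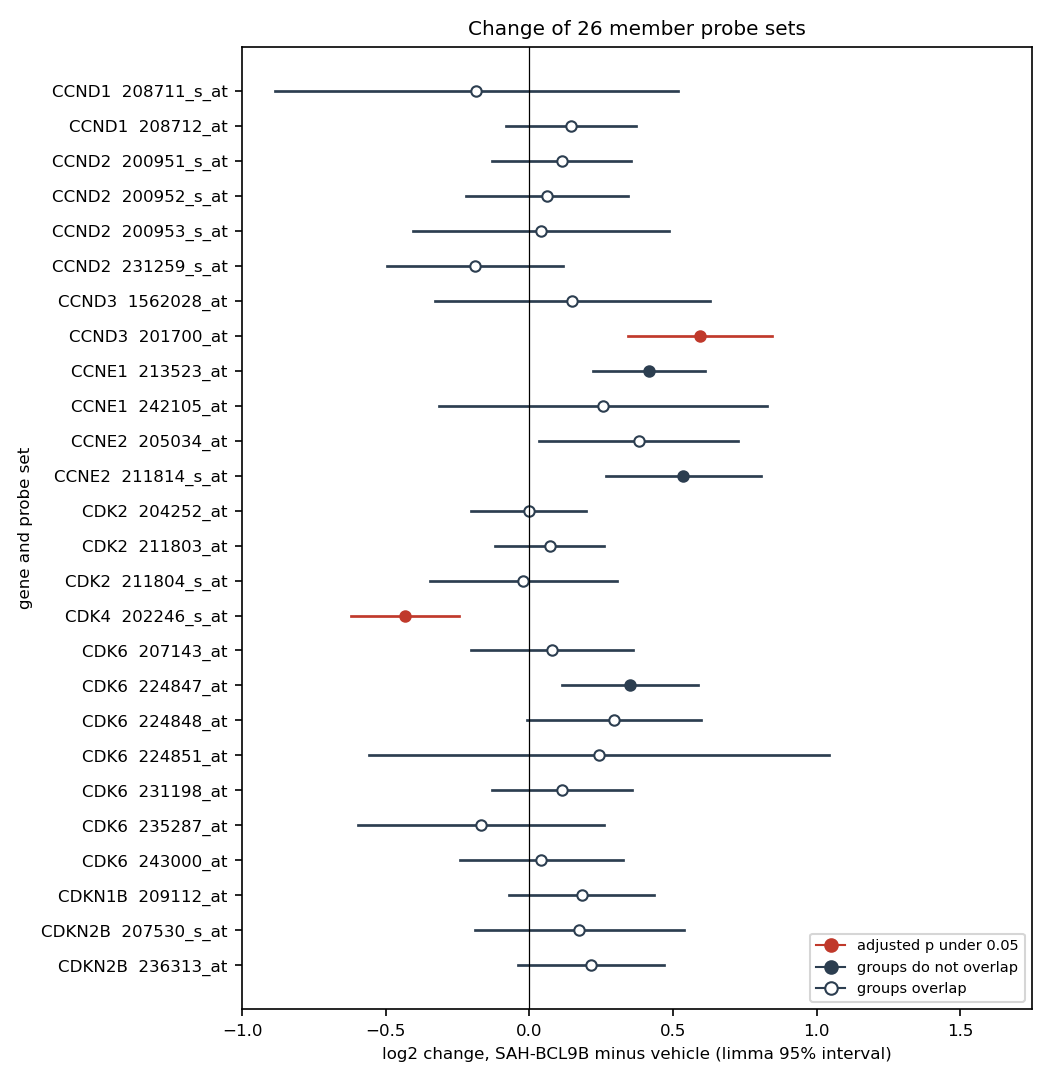
Log2 change, SAH-BCL9B minus vehicle (x axis), with limma's 95% interval for each of the 26 probe sets (y axis). Red marks an adjusted p under 0.05, filled points mark groups that do not overlap and open points groups that do. CCND3 201700_at at 0.59 and CDK4 202246_s_at at -0.43 are red, and all 4 cyclin E points lie right of 0.

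CDK4, a kinase partner of D cyclins, was measured by 1 probe set. Probe set 202246_s_at read 12.08, 12.10 and 11.99 on the SAH-BCL9B arrays, against 12.54, 12.47 and 12.48 on the vehicle arrays. The treated arrays all lay below the vehicle arrays, and the gap between the groups was wider than the spread of either. The mean was 12.06 ± 0.06 in SAH-BCL9B and 12.49 ± 0.04 in vehicle (SD, n = 3). The log2 change was -0.43 ± 0.08 (SE, limma adjusted p = 0.0406), a 1.35-fold fall. The change stayed between -0.46 and -0.40 in every setting tried. The call was lost, among other settings, without any 1 array other than SAH-BCL9B 2 (limma adjusted p of 0.116 to 0.195). Those fits called 97 to 357 of all probe sets, against 1363 as reported. The CDK4 call was also lost with vehicle 3 and SAH-BCL9B 2 both dropped (limma adjusted p = 0.0784).

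The CDK4 promoter is shown because CDK4 was the member that fell and because its upstream region carries E boxes, the CACGTG element bound by MYC and related factors. The 250 bases before the start site were read from RefSeq (GRCh38.p14, chr12:57752311-57752560, minus strand), 5′ to 3′, with each CACGTG in capitals.
CDK4: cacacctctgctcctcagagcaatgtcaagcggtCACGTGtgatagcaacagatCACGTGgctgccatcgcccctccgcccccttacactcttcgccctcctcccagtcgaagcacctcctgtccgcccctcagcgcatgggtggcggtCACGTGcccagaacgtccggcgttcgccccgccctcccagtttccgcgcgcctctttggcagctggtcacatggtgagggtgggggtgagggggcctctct
It held 3 E boxes, which begin 216, 196 and 101 bases before the start site. CACGTG reads the same on both strands. At least 1 was present in 6.34% of 35116 RefSeq promoter windows of this length and at least 3 in 0.0797%. Promoters of 6 of the 10 members were matched, in 9 windows because CCND3 and CDK6 have several starts, and those of CCND3, CCNE1, CDK6, CDKN1B and CDKN2B held no CACGTG. The E2F letters TTTCCCGC, TTTGCCGC, TTTCGCGC and TTTGGCGC (2.79% of windows, both strands) and the TCF letters CTTTGAA and CTTTGAT (5.94%, both strands) were in none of the 9 windows. No window was available for CCND1, CCND2, CCNE2 or CDK2, so this absence does not cover them. At such shares, no match in 9 windows is unremarkable. The motifs do not overlap each other. The E box was chosen after the sequences had been seen, and a match or its absence describes letters in a window alone.

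CDK6, the other kinase partner of D cyclins, was read by 7 probe sets, and none passed. The changes ran from -0.17 for 235287_at to 0.35 for 224847_at, and 6 of the 7 were positive. The brightest, 224847_at, read 10.03, 10.01 and 9.85 on the SAH-BCL9B arrays and 9.62, 9.74 and 9.48 on the vehicle arrays. It was the one CDK6 probe set whose groups did not overlap, with a change of 0.35 ± 0.10 (SE, limma adjusted p = 0.139) and a 95% interval from 0.11 to 0.59. Probe set 224851_at had the widest spread of all 26, at 8.35, 6.80 and 7.74 in SAH-BCL9B against 7.59, 7.35 and 7.23 in vehicle. SAH-BCL9B 2 was the low array there. Over the 26 member probe sets it was the lowest of its group in 9 and the highest in 11. Over all probe sets it was the lowest in 32.4% and the highest in 46.6%. The change of 224851_at was 0.24 ± 0.34 with that array and 0.66 without it (limma adjusted p = 0.839 and 0.122). The mean of the 7 probe sets gave 0.14 (limma adjusted p = 0.589). CDK4 and CDK6 bind the same cyclins; whether their changes differed from each other was not tested.

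CDK2 is the kinase of the E cyclins. Its brightest probe set 204252_at read 10.26, 10.42 and 10.29 in SAH-BCL9B and 10.31, 10.38 and 10.30 in vehicle. The change was -0.0033 ± 0.086 (SE, limma adjusted p = 0.994), and its 95% interval ran from -0.20 to 0.20. The groups overlapped in all 3 CDK2 probe sets, and the changes of the other two were -0.021 for 211804_s_at and 0.071 for the dim 211803_at.

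CDKN1B encodes p27, the inhibitor of cyclin E-CDK2. Its probe set 209112_at read 13.15, 12.80 and 13.00 on the SAH-BCL9B arrays and 12.81, 12.86 and 12.74 on the vehicle arrays. SAH-BCL9B 2 lay inside the vehicle range and the other two treated arrays above it. The change was 0.18 ± 0.11 (SE, limma adjusted p = 0.517), with a 95% interval from -0.07 to 0.43. Without SAH-BCL9B 2 it was 0.27 (limma adjusted p = 0.191), the highest with 1 array left out, and without SAH-BCL9B 1 it was 0.098, the lowest. CDKN2B encodes p15, which TGF-beta is known to induce in epithelial cells. Its brighter probe set, 207530_s_at, read 5.67, 5.87 and 5.59 in SAH-BCL9B and 5.80, 5.22 and 5.59 in vehicle, under the array medians, and the groups overlapped. The changes were 0.17 for 207530_s_at and 0.21 for 236313_at (limma adjusted p = 0.71 and 0.42).

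The rest of the G1/S machinery was read through a list of 33 genes by role, 32 of which had at least 1 probe set of their own, 79 in all. Of the 79, 4 fell, none rose and 75 did not pass limma's test (5.06%, against 2.5% of all probe sets), and 23 (29.1%, against 15.4% of all probe sets) had an unadjusted p under 0.05. The groups did not overlap in 35.4% of the 79, 12 higher and 16 lower in SAH-BCL9B, against 22% of all probe sets. Of probe sets naming 1 gene, as all 79 do, 2.87% passed, 17% had an unadjusted limma p under 0.05 and 24.2% did not overlap. No probe set of the list rose in the fit as reported, and 1 or 2 did in 5 of the alternative settings. The median change of the list was 0.0004, with 40 positive and 39 negative values, against 0.01 over all probe sets. The 4 that fell belonged to E2F8, E2F2, CKS1B and FBXO4.

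Of 22 probe sets of E2F and DP factors, 2 fell. E2F8, an atypical E2F that represses E2F targets, read 9.30, 8.85 and 9.30 on the SAH-BCL9B arrays, against 10.21, 10.20 and 9.97 on the vehicle arrays, with no overlap. Its change of -0.98 ± 0.14 (SE, limma adjusted p = 0.0212) was a 1.97-fold fall and larger in size than that of any of the 26 member probe sets. E2F2, an activating E2F, read 8.41, 8.40 and 8.47 in SAH-BCL9B and 9.05, 9.01 and 9.30 in vehicle by 228361_at. The change was -0.69 ± 0.10 (SE, limma adjusted p = 0.0219), while the other E2F2 probe sets, 235582_at and 207042_at, were dimmer and overlapped. Their changes were -0.069 for 235582_at and 0.14, of the opposite sign, for 207042_at (limma adjusted p = 0.868 and 0.607). E2F1, the best known activating E2F, had a change of -0.02 ± 0.08 by its brighter probe set 204947_at (limma adjusted p = 0.957). RB1, which encodes the retinoblastoma protein, had a change of 0.04 ± 0.13 by 203132_at (limma adjusted p = 0.939), and none of the 8 probe sets of pocket proteins passed.

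Among 30 probe sets of ubiquitin ligase parts and regulators, 2 fell. CKS1B, the cofactor with which SKP2 recognises p27, read 12.36, 12.52 and 12.51 in SAH-BCL9B, against 13.04, 13.02 and 12.93 in vehicle. The groups were apart, with a change of -0.53 ± 0.09 (SE, limma adjusted p = 0.0278). FBXO4, an F-box protein implicated in cyclin D1 turnover, read 8.83, 8.61 and 8.72 in SAH-BCL9B and 9.24, 9.40 and 9.12 in vehicle by 223493_at, a change of -0.53 ± 0.11 (SE, limma adjusted p = 0.0494). The other FBXO4 probe sets lay below the array medians and their groups overlapped. Their changes were 0.26 for 220550_at, of the opposite sign, and -0.043 for 233366_at (limma adjusted p = 0.329 and 0.958). SKP2 itself, the F-box protein that targets p27, had changes of -0.27 for 203625_x_at, -0.52 for 203626_s_at and 0.37 for 210567_s_at, and none passed (limma adjusted p = 0.172, 0.117 and 0.24). The groups of all 3 SKP2 probe sets were apart, in opposite directions. Of the 11 probe sets of other CDK inhibitors none passed, and CDKN1A, which encodes p21, had a change of -0.06 ± 0.10 (limma adjusted p = 0.868). Among other settings, E2F8, E2F2 and CKS1B each missed the threshold without any 1 array other than SAH-BCL9B 2, and FBXO4 without any 1 of the 6 (highest limma adjusted p = 0.113, 0.0993, 0.146 and 0.192). FBXO4 also missed it when arrays were centred on their medians (0.0566), when the ACTB difference was a covariate (0.075) or when vehicle 3 and SAH-BCL9B 2 were both dropped (0.0666). Fits without any 1 array other than SAH-BCL9B 2 called 97 to 357 of all probe sets, against 1363 as reported.

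**Figure D4:**
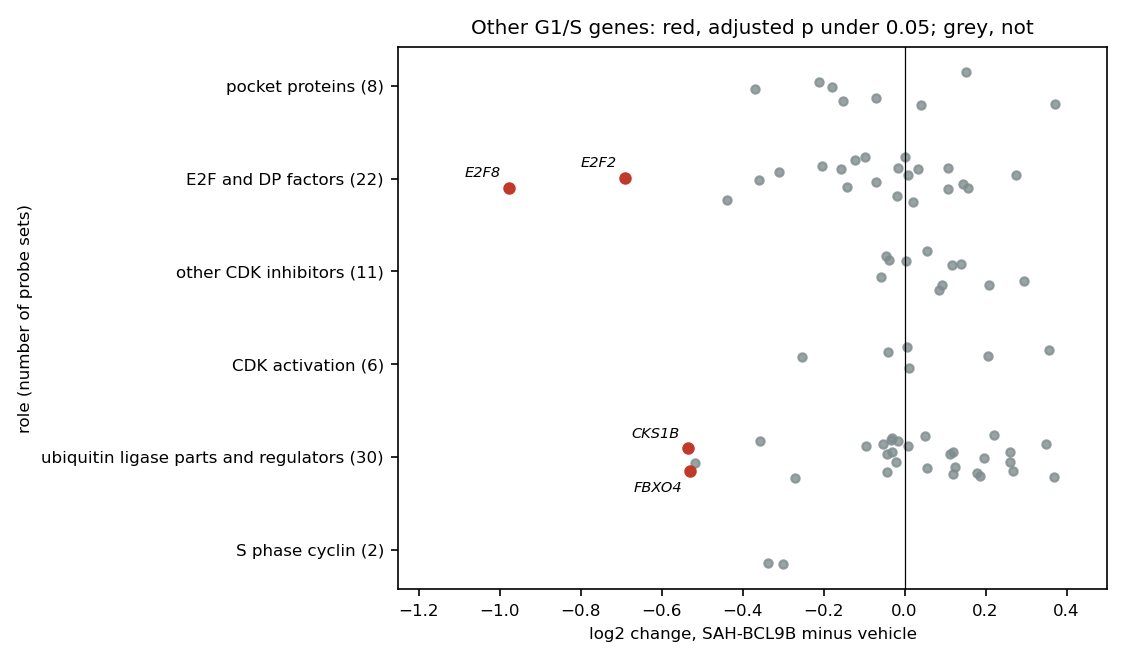
Log2 change, SAH-BCL9B minus vehicle (x axis), of the 79 probe sets of other G1/S genes, 1 point each, by role (y axis, number of probe sets in brackets; points are spread vertically for legibility). The 4 red points, E2F8, E2F2, CKS1B and FBXO4, passed an adjusted p of 0.05 and all lie left of 0.

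The members near the threshold moved across it with the setting. CCND3 201700_at passed in 9 of 17 alternative settings, CDK4 in 10, CCNE1 213523_at in 6 of 17 and CCNE2 211814_s_at in 6 of 16, and the sign of these 4 was the same in each. The remaining 22 member probe sets passed in no alternative, except CCNE2 205034_at in 2.

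**Figure D5:**
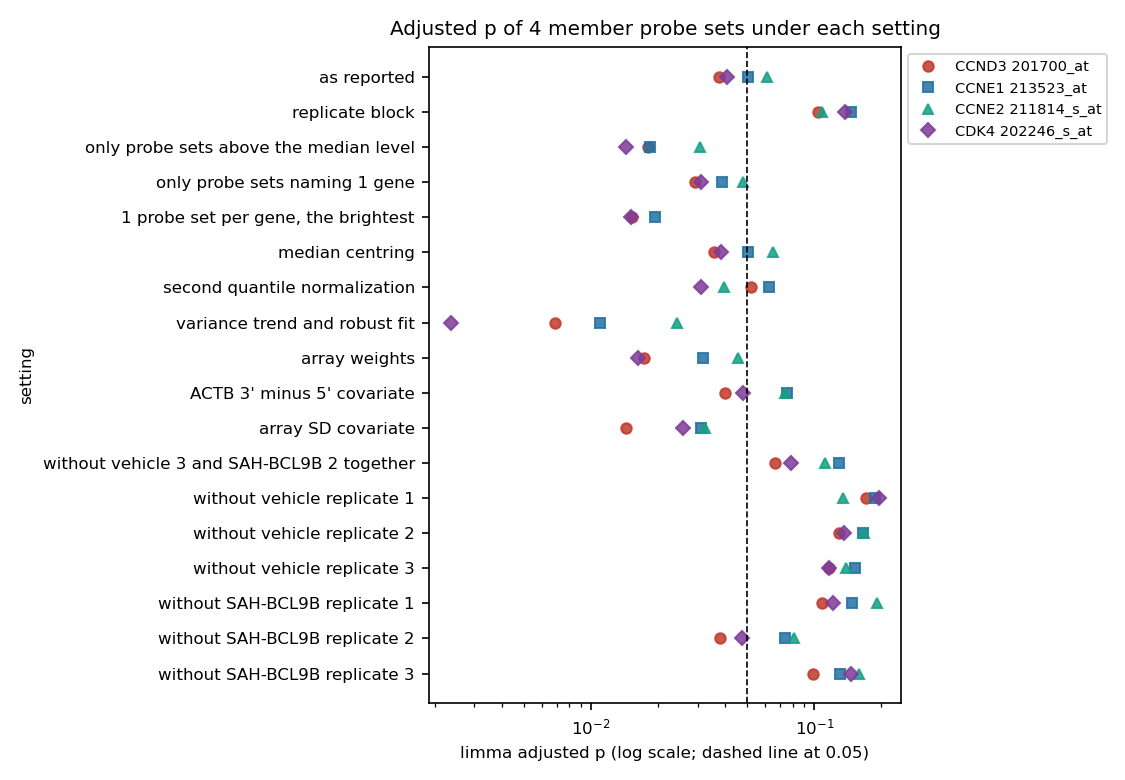
Limma adjusted p (x axis, log scale) of CCND3 201700_at, CCNE1 213523_at, CCNE2 211814_s_at and CDK4 202246_s_at under the reported fit and each alternative that tested the probe set itself (y axis). The dashed line marks 0.05: CCND3 and CDK4 lie left of it as reported, and all 4 lie right of it without any 1 vehicle array.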

How the data were processed

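The deposited values are log2 expression levels on 6 arrays (Affymetrix Human Genome U133 Plus 2.0, 100 ng total RNA each). Software named, per the submitters' processing notes, is RMA and affy, in versions not stated there. RMA makes arrays alike in distribution and shrinks changes of dim probe sets. After leaving out 62 control probe sets, all 54613 others were fitted with limma 3.58.1 in R 4.3.3 (lmFit, eBayes, prior degrees of freedom 3.6, two-sided, no covariates), and p-values were adjusted over them all by Benjamini-Hochberg, with a threshold of 0.05. Errors of a change are moderated SEs. Nothing beyond the term triplicate says how far the cultures were independent, so p-values measure the spread between these arrays. Signal over background is unknown, and the number of arrays limits precision. Genes were not ranked by level, since probe sets differ in brightness.

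GEO's platform annotation named 41091 probe sets with 1 gene, 1801 with several and 11721 with none; Entrez IDs of 41037 matched RefSeq (GCF_000001405.40, GRCh38.p14) and 0 symbols changed. Members and lists were chosen with earlier results of these data known. The text names every member, with array values for CCND1, CCNE1, probe sets past the threshold and the brightest probe set of each other member. Of the other genes it names RB1, E2F1, CDKN1A, SKP2 and those past the threshold. Array values of CCND3 1562028_at, CCNE2 211814_s_at and CDK6 224851_at were added after seeing the data.

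On simulated data with these probe sets' means and spreads, limma recovered 55 of 100 changes of 1 and 1 of 100 changes of 0.5, with 2 false calls. The changed probe sets were drawn at random over all levels, and no others were changed, while the reported fit called 1363. These shares therefore do not give the sensitivity of the reported fit. A change of 0.5 or less that missed the threshold may still be real. Plots used matplotlib 3.10.9 in Python 3.11.15. The 18 alternative settings changed the block, covariates, weights, variance model, normalization, level filter, use of several probe sets or arrays included; their use for genes outside the 10 members was chosen after seeing the data.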

Additional observations from a re-analysis of the deposited data

How the results depend on the processing

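The reported fit called 614 probe sets higher and 749 lower, with 1 member each way, and 4 probe sets of the other G1/S list lower and 0 higher. Leaving out 1 array gave 30 to 726 higher and 67 to 752 lower, 0 to 2 members higher and 0 to 1 lower, and 0 to 3 of the list lower. With the replicate number as a block the counts were 52 and 119, with 0 members (limma adjusted p = 0.104 for CCND3 201700_at and 0.138 for CDK4) and 0 of the list. Whether same-numbered arrays were paired is not known. Their deviations from the group means correlated at 0.406, 0.058 and -0.311, and 2 of 3 vehicle arrays correlated best with their own number. So few arrays cannot decide it. Without vehicle 3 and SAH-BCL9B 2 together 289 were higher, with 0 members either way. The filter on the median level gave 1387 and 1338, 3 members higher, and 7 of the list lower and 1 higher. A variance trend with robust fit gave 1503 and 1420, 3 members higher, and 8 of the list lower and 2 higher. Array weights gave 1292 and 1446, and array SD as a covariate 1360 and 1623, each with 3 members and 1 of the list higher. With the ACTB covariate 2 members and 1 of the list were higher. Members higher were 3 among probe sets naming 1 gene and 2 with 1 probe set per gene, and the mean of a gene's probe sets left 2 of the list lower.

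The CCND1 difference of 0.33 ran from 0.05 to 0.53 with 1 array left out. Signs turned only where no test passed. With the ACTB covariate the change was 0.20 for CCND1 208711_s_at, -0.064 for CCND3 1562028_at, and -0.041 and -0.15 for CCND2 200952_s_at and 200953_s_at. Without vehicle 3 and SAH-BCL9B 2 together it was 0.15 for 208711_s_at, -0.20 for 200953_s_at and -0.071 for CDK6 243000_at. It was -0.093 for 200953_s_at with array weights and 0.0020 for CDK2 204252_at with array SD. With 1 array left out, changes ran from -0.39 to 0.15 for 208711_s_at, -0.12 to 0.20 for 200953_s_at, -0.026 to 0.15 for 200952_s_at, -0.033 to 0.31 for 1562028_at, -0.052 to 0.029 for 204252_at and -0.17 to 0.070 for CDK2 211804_s_at. For CDK6 they ran from -0.29 to 0.047 for 235287_at, -0.076 to 0.15 for 243000_at, -0.023 to 0.14 for 207143_at and -0.12 to 0.66 for 224851_at. They ran from -0.060 to 0.15 for RB1 203132_at, -0.063 to 0.0032 for E2F1 204947_at and -0.13 to 0.0097 for CDKN1A 202284_s_at. The cause of these moves was not tested.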
